A study of Mus musculus with 12 samples.

Results

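The nuclear genes for the subunits of respiratory complexes II, III and IV, for cytochrome c and for the ATP synthase (complex V) were described in brain RNA of old mice given the complex I inhibitor CP2, of old mice without it and of young mice. The 39 genes were picked by their symbols in the deposited table of 43346 genes, a rule that uses no measured value. The list itself was chosen with earlier results of these data known. Complex II has 4 of them, complex III 9, cytochrome c 1, complex IV 10 and the ATP synthase 15. All 39 were present and all 39 were among the 22553 genes that passed the filter on low counts. The lowest count of any member in a library was 1432 and the highest 101468, so counting error was small beside the spread between libraries.

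Complexes II to IV pass electrons from succinate and ubiquinol to oxygen along the inner mitochondrial membrane, and the ATP synthase uses the proton gradient that complexes I, III and IV build. Complex II is made from nuclear genes alone, whereas complexes III and IV and the ATP synthase each join nuclear subunits to a core that includes subunits made from mitochondrial DNA. Neurons draw most of their ATP from this chain. The deposited table lists all 13 protein genes encoded by mitochondrial DNA at 0 in every library, and the nuclear subunits could not be set beside their mitochondrial partners.

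Each group held 4 libraries, from mice that all carried the genotype label wild type and sample titles beginning with NTG. Old_CP2 mice were 23 months old with the strain label C57BL/6;SJL-Tg, and took CP2 at 25 mg per kg per day in drinking water with 0.1% polyethylene glycol (PEG) from the age of 9 months. Old mice shared that age and strain label and took the 0.1% PEG vehicle from 9 months. Young mice, with the strain label C57BL/6, were 3 months old and received neither CP2 nor PEG. Old and Young therefore differ in age, in strain label and in vehicle, and these cannot be told apart. The series' design text speaks of treated and untreated APP/PS1 mice instead, and this conflict was not settled. RNA came from a brain cross-section holding hippocampus and cortex. The labels do not say that each library is a separate animal, so p-values cover the spread between these libraries, which may in part be technical.

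Depth was 78021395 to 99449665 counts per library in Old_CP2, 70548781 to 94741585 in Old and 77469073 to 91549618 in Young, and the 39 members took 0.627 to 0.742% of them. Markers of cortical and hippocampal neurons were high throughout, with all 8 detected and summed levels of 3116 to 4084 CPM (counts scaled to the library's depth and edgeR's TMM factor) in Old_CP2, 2640 to 3844 CPM in Old and 3466 to 3868 CPM in Young. The libraries differed in how much of other regions they held. Summed CPM of 10 choroid plexus markers was 30.05 to 848 in Old_CP2, 33.7 to 987 in Old and 1243 to 1998 in Young. For 6 midbrain and hindbrain markers it was 57.0 to 176 in Old_CP2, 67.2 to 101 in Old and 7.67 to 33.0 in Young. For 5 red blood cell markers it was 228 to 443 in Old_CP2, 81.6 to 148 in Old and 59.2 to 91.0 in Young. No marker of these lists was at 0 in any library. In bulk RNA, fewer cells of a type and less RNA per cell cannot be told apart.

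Levels per kb of transcript spanned a wide range among the 39 genes. With the deposited gene length as divisor, the mean over the 3 groups was highest for Cox8a, a small complex IV subunit, at 518 CPM per kb. Cox6a1 followed at 314, Cox6b1 at 288, Atp5a1 at 263 and Atp5b at 244 CPM per kb. At the low end stood Atp5g2 at 12.7, Cycs at 13.7, Atp5g1 at 16.04 and Sdhc at 20.1 CPM per kb. The deposited length matched the union of all exons in the GENCODE vM21 annotation for 27 of the 39 genes, and a union counts exons of rarely used isoforms too. The principal transcript was the longest that GENCODE marks as principal, or the longest coding one for a member without such a mark. Divided by its length, Atp5b came first at 540 CPM per kb, ahead of Cox8a at 513 and Cox4i1 at 392. Cycs at 14.9, Atp5g1 at 16.7 and Sdhc at 20.6 CPM per kb then made up the low end. For these genes the principal and deposited lengths are close, so the second length is hardly a separate check. They are 3123 and 3404 bases for Cycs, 4715 and 4912 for Atp5g1, and 3171 and 3250 for Sdhc. The position of several genes therefore depends on the length used: Cox6c stood at 48.6 CPM per kb by deposited length and at 235 by principal transcript, and Atp5g3 at 89.6 and 270.2.

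**Figure D1:**
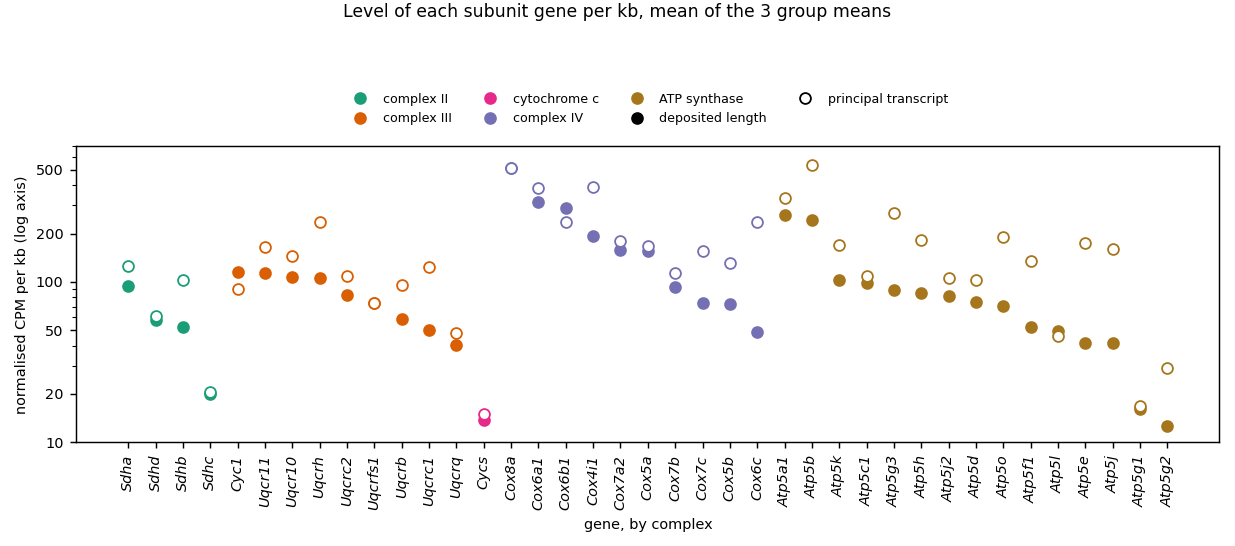
Mean level of each subunit gene in CPM per kb on a log axis, grouped by complex; filled circles use the deposited gene length and open circles the principal transcript. Atp5b at 540 and Cox8a at 513 CPM per kb lead by principal transcript. Cycs, Atp5g1 and Sdhc lie between 13.7 and 20.6 CPM per kb by either length, and for these genes the lengths are close.

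Old_CP2 against Old addresses whether long intake of a complex I inhibitor is accompanied by altered transcript levels of the rest of the chain. No subunit gene passed the test. By edgeR's quasi-likelihood test with Benjamini-Hochberg adjustment over all tested genes, 0 of 39 members had an adjusted p under 0.05, where 0.0443% of all tested genes did (0.0266% higher and 0.0177% lower), and 0 had an unadjusted p under 0.05, where 6.31% of all tested genes did. DESeq2 and limma voom also called 0 members. The values of the 4 Old_CP2 and 4 Old libraries overlapped for every member, while 1.62% of tested genes lay wholly higher in Old_CP2 and 1.82% wholly lower. The smallest adjusted p among members was 0.830.

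The log2 fold changes of Old_CP2 over Old were small and mostly below 0. Their median over the 39 members was -0.067, and they ran from -0.17 for Cox7c to 0.012 for Cox5a. Of the 39, 38 were below 0, against 49.4% of all tested genes, whose median was 0.0017. With plain library sizes 33 were below 0 and with library offsets by transcript length 34, and leaving out Old library 7 gave 32. The median itself was -0.042 with plain library sizes, where that of all tested genes was 0.026, and -0.043 with offsets by length, where that of all tested genes was -0.0043. Without Old_CP2 library 15 it was -0.12, without Old_CP2 library 12 it was -0.035 and without Old library 7 it was -0.031. The median was smaller than the SD of 0.14 (log2) between libraries of one group in the members' own median level. By complex, the medians were -0.026 for complex II, -0.087 for complex III, -0.034 for cytochrome c, -0.081 for complex IV and -0.059 for the ATP synthase. The 95% confidence intervals of the single genes ran at their widest from -0.42 to 0.19, which is a ratio of 0.747 to 1.14, so larger changes than these lay outside the interval of every member.

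Summed over each complex, the levels in Old_CP2 and Old differed by less than or about the spread between libraries. The 39 genes together averaged 6601 ± 346 CPM in Old_CP2, 6891 ± 287 CPM in Old and 6755 ± 371 CPM in Young (SD, n = 4 each). ATP synthase genes made up the largest sum, with 3331 ± 123 CPM in Old_CP2, 3456 ± 107 CPM in Old and 3354 ± 148 CPM in Young (SD, n = 4 each). Complex IV genes gave 1588 ± 152 CPM in Old_CP2, 1682 ± 97.99 CPM in Old and 1705 ± 143 CPM in Young, and complex III genes gave 1008 ± 57.8 CPM in Old_CP2, 1064 ± 71.2 CPM in Old and 1055 ± 61.4 CPM in Young (SD, n = 4 each). Complex II was the one sum in which both old groups stood above Young, with 630 ± 13.9 CPM in Old_CP2, 643 ± 14.7 CPM in Old and 592 ± 20.8 CPM in Young (SD, n = 4 each), and Sdha alone stood at 377 ± 7.08 CPM in Old_CP2, 384 ± 6.62 CPM in Old and 333 ± 5.60 CPM in Young.

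Old against Young gave 1 called member of 39, Sdha, which was higher in Old, and none that was lower. In that comparison 6.7% of all tested genes were called, 3.96% higher and 2.74% lower, so a single call among the members is a share below that of all genes. At an unadjusted p under 0.05 there were 2 members, Sdha and Atp5a1, where 21.4% of all tested genes reached that level. The same 2 members had 4 Old values wholly above the 4 Young values, which held for 6.94% of all tested genes. No member lay wholly lower in Old, which held for 6.32% of all tested genes. The median log2 fold change was -0.022 over the members and -0.0034 over all tested genes. Its sign is not stable, as it was 0.0077 with library offsets by transcript length and 0.030, 0.0034 and 0.018 without Young library 5, Old library 9 or Old library 10. It was further below 0, at -0.074, with the choroid plexus score as covariate, and at -0.060, -0.059 and -0.040 without Old library 7, Young library 3 or Old library 8.

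Old_CP2 against Young shares its libraries with both comparisons above. Again 1 of 39 members was called, Sdha, higher in Old_CP2, where 7.57% of all tested genes were called, 4.63% higher and 2.94% lower. Unadjusted p was under 0.05 for 6 members (Sdha, Atp5a1, Uqcr11, Uqcrq, Cox6a1 and Atp5d), where 23.2% of tested genes reached it. Sdha and Atp5a1 were the 2 members whose Old_CP2 values lay wholly above the Young values, which held for 8.42% of all tested genes, and none lay wholly lower, which held for 7.07%. The median log2 fold change was -0.099 over the members and -0.0076 over all tested genes, and with library offsets by transcript length the members' median was -0.020. It was -0.17 with the choroid plexus score as covariate, -0.16 without Old_CP2 library 15 and -0.046 without Young library 5.

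**Figure D2:**
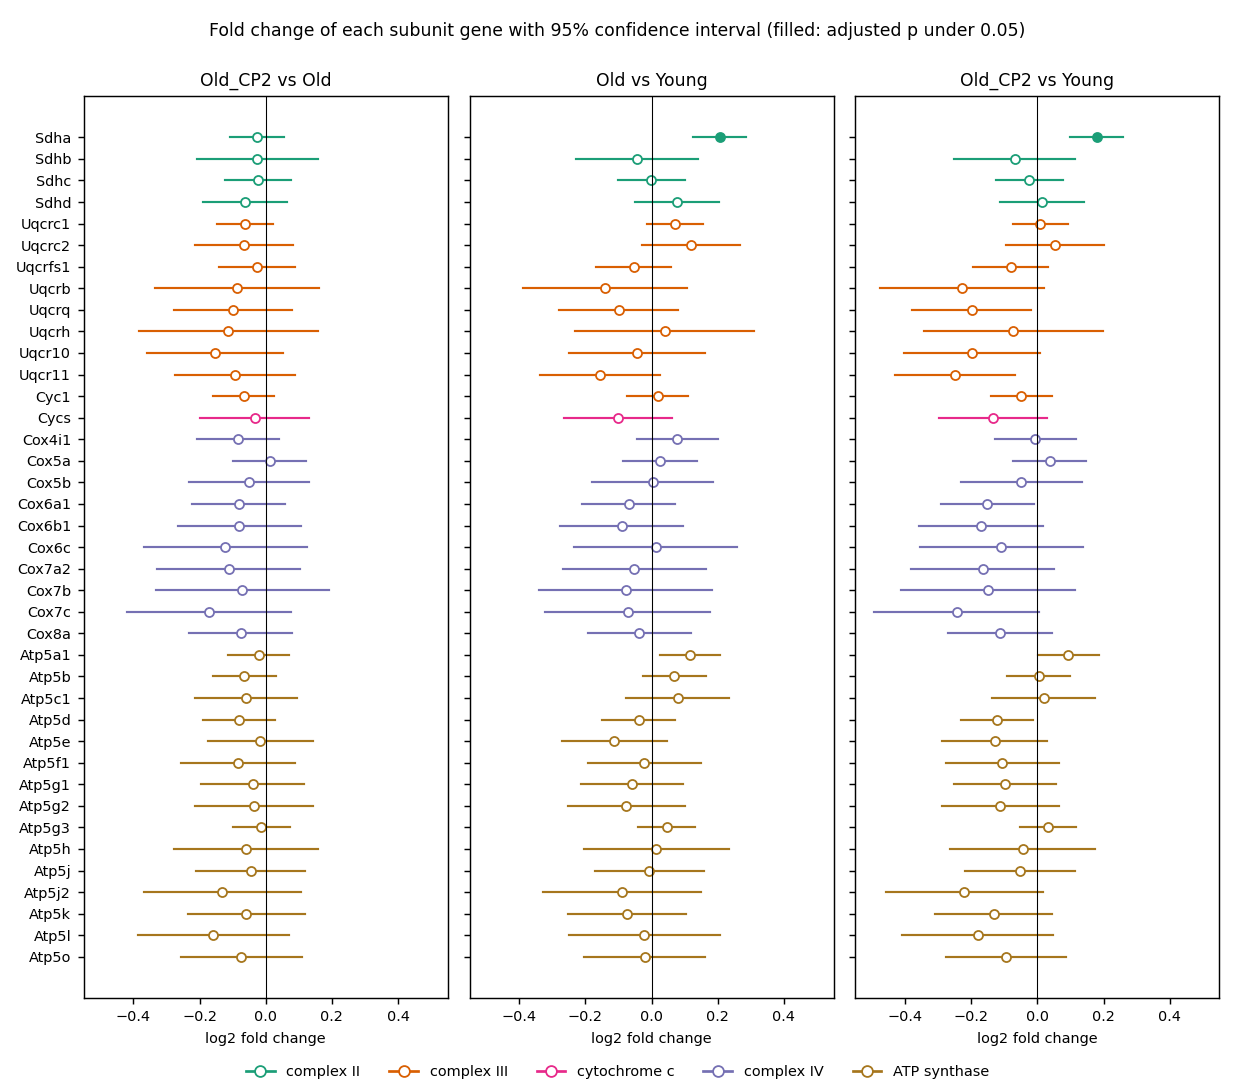
Log2 fold change of each of the 39 subunit genes in 3 comparisons, with its 95% confidence interval from edgeR's quasi-likelihood fit; colours mark the complex and filled circles an adjusted p under 0.05. Sdha is the one filled circle, at 0.21 in Old over Young and 0.18 in Old_CP2 over Young, and in Old_CP2 over Old every interval reaches across 0.

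Complex II oxidises succinate to fumarate and is shared with the TCA cycle. Sdha encodes its flavoprotein, which carries the FAD where succinate is oxidised. Sdha (ENSMUSG00000021577, chromosome 13, 74322254 to 74350280 of mm10, minus strand) measured 381.4, 384.2, 373.4 and 368.9 CPM in the 4 Old_CP2 libraries. It measured 383.0, 384.8, 376.2 and 392.3 CPM in Old and 325.0, 337.6, 333.2 and 336.0 CPM in Young. All 8 old libraries lay above all 4 Young libraries, and the 2 old groups overlapped. Sdha was 15.4% higher in Old than in Young, with a log2 fold change of 0.21 ± 0.037 (SE) and an adjusted p of 0.00763 by edgeR. In Old_CP2 over Young the log2 fold change was 0.18 ± 0.037 (SE, edgeR adjusted p = 0.0128). In Old_CP2 over Old it was -0.027, with a 95% interval of -0.11 to 0.054 (edgeR adjusted p = 0.925).

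The call of Sdha in Old over Young held in every alternative tried, with adjusted p from 1.47e-09 (DESeq2) to 0.0360 (a choroid plexus score as covariate, edgeR), and from 0.0121 to 0.0202 when any one library was left out. In Old_CP2 over Young it was lost with the choroid plexus score as covariate, where the log2 fold change was 0.20 and edgeR's adjusted p 0.0652. Markers of other regions and cells moved between the same groups. Of the 6 midbrain and hindbrain markers, 5 were called higher in Old than in Young and 6 in Old_CP2 than in Young. Of 5 striatal markers, 4 were called lower in Old than in Young and 3 in Old_CP2 than in Young. Of 4 thalamic markers, 3 were lower in each. Astrocyte markers summed to 1209 to 1417 CPM in Old_CP2, 1353 to 1578 CPM in Old and 986 to 1196 CPM in Young, and microglial markers to 226 to 262 CPM in Old_CP2, 229 to 244 CPM in Old and 166 to 210.1 CPM in Young. Of 5 oligodendrocyte markers, 0 were called in Old against Young and Mog and Cnp were called lower in Old_CP2 than in Young, and the 5 summed to 3815 to 5352 CPM in Old_CP2, 4364 to 6251 CPM in Old and 4815 to 5781 CPM in Young. Of 4 ependymal markers, Tmem212 was called lower in both old groups than in Young, and the 4 summed to 11.9 to 21.8 CPM in Old_CP2, 11.001 to 27.2 CPM in Old and 20.4 to 45.04 CPM in Young. The choroid plexus score ran from 0.667 to 1.07 in Young and reached 0.471 at most in the old groups. Without overlap, the covariate run cannot separate choroid plexus content from the group difference. The part of the other regions and cells in the Sdha result was not tested.

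Sdha also had the most even level of all members within groups, with a pooled SD of 0.025 on the log2 scale, and the lowest median correlation with the others. Across the 12 libraries with group means removed, its correlation with the other 38 members had a median of -0.42, and with its own complex II partners it was -0.33 for Sdhb, -0.10 for Sdhc and -0.18 for Sdhd. These are descriptions over libraries that share depth and composition. No near-identical copy of Sdha was found in the annotation, and the 1 gene that overlaps it, Gm16125, held 86 reads over the 12 libraries together, beside 378469 of Sdha.

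The Sdha promoter is printed because Sdha is the one member called between either old group and Young. It spans 250 bases before to 50 bases after the start in RefSeq (GRCm38.p6, chr13:74350191-74350490, minus strand). Capitals mark matches to the NRF1 motif, which is GCGCA, then any base, then GCGC, searched on both strands.
Sdha: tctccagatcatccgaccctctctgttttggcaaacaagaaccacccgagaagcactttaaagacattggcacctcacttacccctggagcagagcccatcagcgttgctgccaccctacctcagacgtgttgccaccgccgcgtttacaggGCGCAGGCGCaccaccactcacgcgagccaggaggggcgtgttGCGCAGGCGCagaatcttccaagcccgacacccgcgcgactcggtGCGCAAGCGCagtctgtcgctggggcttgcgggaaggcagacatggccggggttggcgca
The window held 3 such matches, beginning at -98, -55 and -10 counted from 0 at the first transcribed base, and none overlapped another searched motif. NRF1 (nuclear respiratory factor 1) is a transcription factor known for binding promoters of respiratory chain genes. Promoter windows were found for 30 of the 39 members, and 10 of these 30 held an NRF1 match, against 4.6% of all 32851 windows in the table. CCGGAAG, an ETS-family motif of the kind bound by GABP, occurred in 12 of the 30 and in 8.86% of all windows. AANATGGC, a YY1 motif, occurred in 4 of the 30 and 6.05% of all windows, and the cAMP response element TGACGTCA in 2 and 1.79%. Members were counted by gene, with a match in any window of the gene, whereas the share of all windows counts single windows. Member windows were richer in G and C, with a median of 57.0%, against 52.7% over all windows. The shares were matched for neither. A match describes letters and not a bound site.

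The other complex II genes did not pass the test in any comparison. Sdhb, the iron-sulfur subunit, averaged 114 ± 11.9 CPM in Old_CP2, 116 ± 8.87 CPM in Old and 119.8 ± 12.2 CPM in Young (SD, n = 4 each). Sdhc and Sdhd form the membrane anchor at which ubiquinone is reduced. Sdhd, with the smallest p of the complex in Old_CP2 against Old, measured 73.2, 70.2, 73.4 and 79.5 CPM in Old_CP2, 82.5, 79.5, 72.3 and 75.1 CPM in Old and 71.6, 68.0, 74.1 and 79.5 CPM in Young. Its groups overlapped throughout, and the log2 fold change of Old_CP2 over Old was -0.062 ± 0.059 (SE, edgeR adjusted p = 0.890). Sdhc, the lowest of the complex per kb, measured 63.7, 63.7, 63.0 and 67.9 CPM in Old_CP2, 67.2, 65.3, 63.3 and 66.8 CPM in Old and 66.9, 63.1, 62.5 and 70.2 CPM in Young, with log2 fold changes within 0.025 of 0 in all comparisons.

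**Figure D3:**
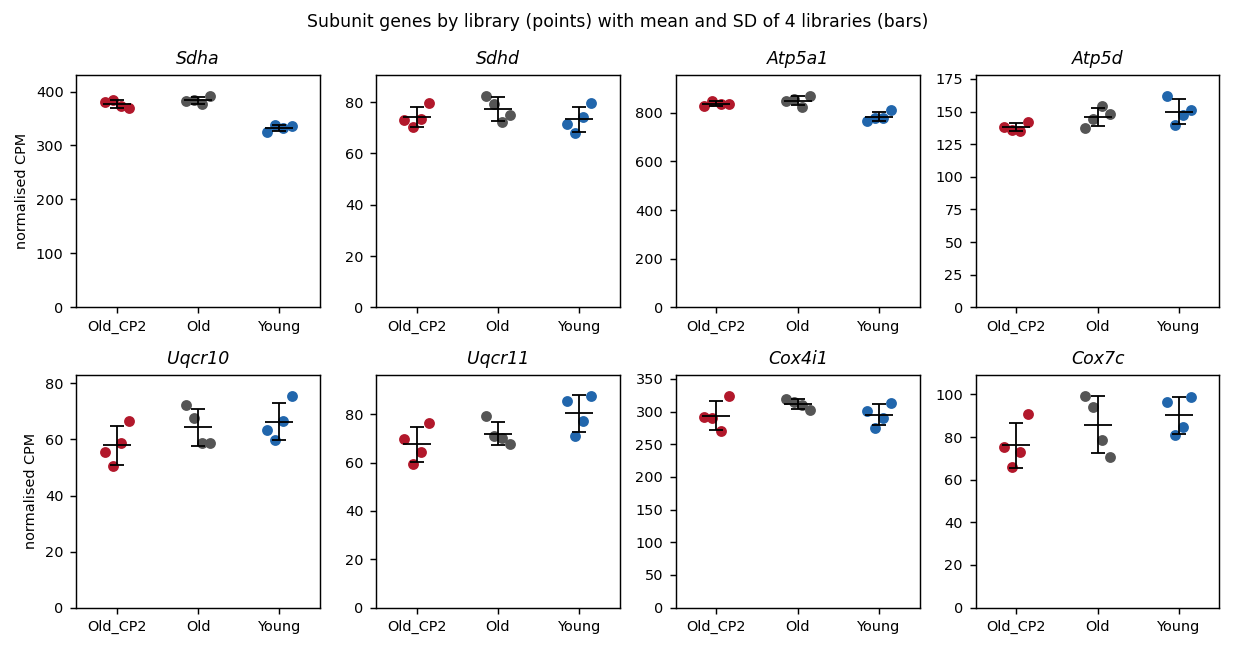
Normalised CPM of 8 subunit genes in each library (points), with the mean and SD of 4 libraries (bars), axes starting at 0. Sdha and Atp5a1 lie higher in both old groups than in Young without overlap, and all 8 genes overlap between Old_CP2 and Old.

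Complex III takes electrons from ubiquinol and hands them to cytochrome c. None of its 9 nuclear genes passed the test in any of the 3 comparisons by edgeR. Uqcr10, a small subunit near the Rieske protein, had the smallest p of the complex in Old_CP2 against Old. It measured 55.4, 50.5, 58.8 and 66.8 CPM in Old_CP2, 72.2, 67.5, 58.9 and 58.8 CPM in Old and 63.5, 59.97, 66.6 and 75.5 CPM in Young. Libraries 13 and 15 of Old_CP2 reached into the Old range and library 15 into the Young range, and the log2 fold change over Old was -0.15 ± 0.095 (SE, edgeR adjusted p = 0.830).

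Uqcr11, another small subunit, came nearest to a call in the complex. It measured 69.97, 59.4, 64.4 and 76.5 CPM in Old_CP2, 79.1, 71.2, 70.1 and 67.8 CPM in Old and 85.5, 71.0, 77.4 and 87.6 CPM in Young. Library 15 of Old_CP2 lay inside the Young range and the other 3 lay below it. Its log2 fold change of Old_CP2 over Young was -0.25 ± 0.084 (SE), with an adjusted p of 0.0914 by edgeR. DESeq2 gave 0.0471, and leaving out Old_CP2 library 15 gave a log2 fold change of -0.31 and an edgeR adjusted p of 0.0417. In Old over Young it was -0.16 (edgeR adjusted p = 0.308) and in Old_CP2 over Old -0.093 (edgeR adjusted p = 0.888).

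Cyc1, cytochrome c1, was the highest complex III gene per kb by deposited length, almost level with Uqcr11. It measured 132.7, 130.9, 129.4 and 140.1 CPM in Old_CP2, 140.2, 140.9, 135.6 and 141.6 CPM in Old and 145.6, 131.3, 134.1 and 140.4 CPM in Young. Only library 15 of Old_CP2 reached into the Old range, and the log2 fold change over Old was -0.067 ± 0.043 (SE, edgeR adjusted p = 0.834). Uqcrq, the lowest per kb by either length, measured 69.1, 64.0, 63.3 and 77.5 CPM in Old_CP2, 79.3, 75.7, 72.0 and 66.4 CPM in Old and 80.1, 69.4, 76.1 and 88.8 CPM in Young. Its log2 fold change of Old_CP2 over Young was -0.20 ± 0.083 (SE), with an edgeR adjusted p of 0.172.

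The remaining complex III genes overlapped between Old_CP2 and Old as well. Uqcrc1, a core protein, averaged 203 ± 4.09 CPM in Old_CP2, 212 ± 7.97 CPM in Old and 202 ± 3.71 CPM in Young (SD, n = 4 each). Uqcrc2, the other core protein, averaged 206 ± 3.07 CPM in Old_CP2, 216 ± 21.1 CPM in Old and 199 ± 15.7 CPM in Young (SD, n = 4 each). Both had higher means in Old than in Young, with log2 fold changes of 0.071 and 0.12 that did not pass the test (edgeR adjusted p = 0.318 and 0.347). Uqcrfs1, the Rieske iron-sulfur protein that takes electrons from ubiquinol, averaged 98.6 ± 6.55 CPM in Old_CP2, 100.4 ± 4.02 CPM in Old and 104 ± 4.61 CPM in Young (SD, n = 4 each). Uqcrh, the hinge protein, averaged 124 ± 19.04 CPM in Old_CP2, 135 ± 24.5 CPM in Old and 131 ± 11.6 CPM in Young (SD, n = 4 each). Uqcrb, a small subunit, averaged 47.8 ± 6.14 CPM in Old_CP2, 50.7 ± 8.19 CPM in Old and 55.9 ± 5.61 CPM in Young (SD, n = 4 each). Over these 5 genes the log2 fold changes of Old_CP2 over Old ran from -0.11 to -0.027.

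Cycs, the somatic cytochrome c that carries electrons between complexes III and IV, was among the lowest members per kb. It measured 43.3, 41.2, 46.5 and 47.7 CPM in Old_CP2, 49.6, 48.7, 43.7 and 41.0 CPM in Old and 46.4, 47.1, 47.3 and 55.4 CPM in Young. All groups overlapped, and the log2 fold change was -0.034 ± 0.076 (SE) in Old_CP2 over Old and -0.10 ± 0.076 (SE) in Old over Young, with edgeR adjusted p of 0.955 and 0.495. Its 4 near-identical copies, counted at no less than 95% identity over 200 bases, held reads equal to 26.4% of its own, so its level is uncertain.

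Complex IV reduces oxygen to water, and its nuclear subunits surround a catalytic core made from mitochondrial DNA. None of the 10 genes passed the test in any comparison. Cox7c had the largest log2 fold change of all members in Old_CP2 over Old. It measured 75.3, 65.8, 72.9 and 90.7 CPM in Old_CP2, 99.3, 94.3, 78.8 and 70.8 CPM in Old and 96.5, 80.9, 84.6 and 98.8 CPM in Young. The Old_CP2 and Old values interleaved, and the log2 fold change was -0.17 ± 0.12 (SE, edgeR adjusted p = 0.844).

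Cox4i1, the common isoform of the subunit through which ATP inhibits the enzyme, had the smallest p of the complex in Old against Young. It measured 291.3, 289.6, 270.8 and 323.8 CPM in Old_CP2, 318.7, 314.3, 310.6 and 302.2 CPM in Old and 301.6, 275.2, 290.3 and 313.3 CPM in Young. The Old libraries were close together and overlapped Young, with a log2 fold change of 0.078 ± 0.057 (SE, edgeR adjusted p = 0.480). Cox8a measured 257.8, 258.6, 261.8 and 301.2 CPM in Old_CP2, 280.5, 293.5, 287.2 and 276.8 CPM in Old and 319.2, 255.1, 278.4 and 314.9 CPM in Young. Of its Old_CP2 libraries, 3 lay below all Old libraries and the fourth above them, and the log2 fold change was -0.076 ± 0.073 (SE, edgeR adjusted p = 0.890). Cox6c, the lowest of the complex per kb by deposited length, measured 160.4, 144.0, 156.7 and 196.2 CPM in Old_CP2, 206.7, 193.2, 167.4 and 148.0 CPM in Old and 176.2, 161.3, 167.0 and 204.6 CPM in Young, with a log2 fold change of -0.12 ± 0.11 (SE, edgeR adjusted p = 0.890) in Old_CP2 over Old.

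Cox5a, a matrix-side subunit, was the one member of the 39 with a positive log2 fold change of Old_CP2 over Old, 0.012. Cox5a averaged 109 ± 7.81 CPM in Old_CP2, 108 ± 3.43 CPM in Old and 106 ± 3.82 CPM in Young (SD, n = 4 each). Cox5b, the zinc-binding subunit, averaged 111 ± 12.9 CPM in Old_CP2, 115 ± 5.96 CPM in Old and 115 ± 11.6 CPM in Young (SD, n = 4 each). The other 4 are small subunits. Cox6a1 averaged 208 ± 14.01 CPM in Old_CP2, 221 ± 1.67 CPM in Old and 231 ± 22.04 CPM in Young (SD, n = 4 each). Cox6b1 averaged 137 ± 17.3 CPM in Old_CP2, 145 ± 10.3 CPM in Old and 154 ± 13.2 CPM in Young (SD, n = 4 each). Cox6a1 and Cox6b1 had log2 fold changes of -0.15 and -0.17 in Old_CP2 over Young, with edgeR adjusted p of 0.183 and 0.262. Cox7a2 averaged 112 ± 13.1 CPM in Old_CP2, 121 ± 14.99 CPM in Old and 125 ± 12.3 CPM in Young (SD, n = 4 each). Cox7b averaged 107 ± 16.7 CPM in Old_CP2, 113 ± 17.9 CPM in Old and 119 ± 11.8 CPM in Young (SD, n = 4 each). All 10 complex IV genes overlapped between every pair of groups.

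Several complex IV subunits exist as isoforms from separate genes. In these brain libraries the common form supplied nearly all transcripts of every set examined except Cox7a. Per kb of deposited length, Cox4i1 made up 98.7 to 99.4% of Cox4i1 and Cox4i2 together over the 12 libraries, and Cox6b1 99.2 to 99.6% of Cox6b1 and Cox6b2. Cox8a made up 98.9 to 99.9% of Cox8a and Cox8b. Cox6a2, the isoform known from heart and skeletal muscle, was 1.36 to 1.95% of Cox6a1 and Cox6a2 in Old_CP2, 1.122 to 2.35% in Old and 2.45 to 3.31% in Young. Cox7a2 shared its place with Cox7a2l, a relative known for joining complexes III and IV, which took 38.99 ± 0.776% of the Cox7a transcripts in Old_CP2, 38.2 ± 1.65% in Old and 35.9 ± 0.615% in Young (SD, n = 4 each).

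Cox6a2, which is not among the 39, was the one related subunit gene that passed the test. It measured 3.34, 3.40, 3.73 and 2.96 CPM in Old_CP2, 2.37, 4.12, 3.35 and 4.97 CPM in Old and 7.43, 4.85, 7.10 and 7.41 CPM in Young. Old library 10, at 4.97 CPM, lay above Young library 3 at 4.85 CPM, and all Old_CP2 libraries lay below all Young ones. Its log2 fold change was -0.85 ± 0.20 (SE, edgeR adjusted p = 0.0235) in Old over Young, -0.99 ± 0.20 (SE, edgeR adjusted p = 0.0101) in Old_CP2 over Young and -0.14 ± 0.20 (SE, edgeR adjusted p = 0.927) in Old_CP2 over Old. The call in Old over Young was lost with the choroid plexus score as covariate, where the log2 fold change was -0.66 (edgeR adjusted p = 0.164), and within the 8 libraries alone, where it was -0.85 (edgeR adjusted p = 0.0501). Without Young library 1, 4 or 5 or Old library 9 it was -0.80, -0.82, -0.80 and -0.80, with edgeR adjusted p of 0.0575, 0.0595, 0.0608 and 0.0601. The call in Old_CP2 over Young was lost with that covariate, at a log2 fold change of -0.74 (edgeR adjusted p = 0.140). The score did not overlap between Young and the old groups, so these runs cannot separate choroid plexus content from group. Summed striatal markers were 89.6 to 135 CPM in Old_CP2, 99.0 to 130.3 CPM in Old and 166 to 279.9 CPM in Young, and thalamic markers 181 to 365.3 CPM in Old_CP2, 229.95 to 357 CPM in Old and 403 to 729 CPM in Young. Their part in the Cox6a2 result was not tested.

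**Figure D4:**
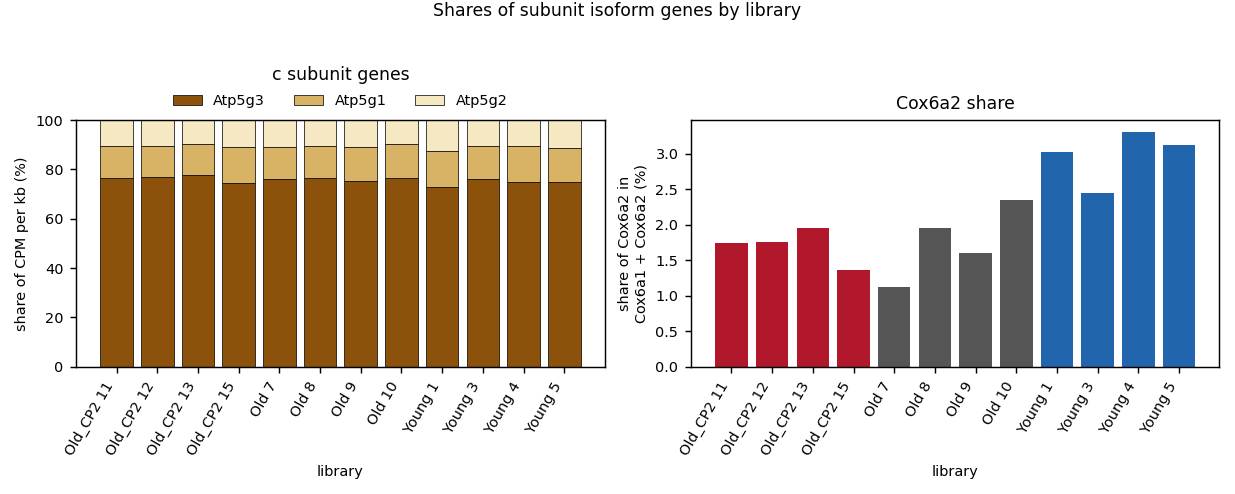
Left, shares of CPM per kb of deposited length among the 3 genes for the c subunit of the ATP synthase in each library; right, the share of Cox6a2 in Cox6a1 plus Cox6a2, with Old_CP2 in red, Old in grey and Young in blue. Atp5g3 takes 72.7 to 77.7% in every library, and the Cox6a2 share is 2.45 to 3.31% in Young and at most 2.35% in both old groups.

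The ATP synthase has a catalytic F1 head of alpha, beta, gamma, delta and epsilon subunits, a rotating ring of c subunits in the membrane, and a stalk that holds the head in place. None of its 15 genes passed edgeR's test in any comparison. Atp5a1, the alpha subunit, measured 826.5, 850.2, 835.7 and 835.7 CPM in Old_CP2, 848.4, 855.8, 824.4 and 870.6 CPM in Old and 767.8, 778.4, 780.0 and 811.4 CPM in Young. All 8 old libraries lay above all 4 Young libraries, and Old_CP2 and Old overlapped. The log2 fold change was 0.12 ± 0.042 (SE) in Old over Young and 0.094 ± 0.042 (SE) in Old_CP2 over Young, with edgeR adjusted p of 0.125 and 0.202. DESeq2 gave adjusted p of 0.00349 and 0.0236 for the same differences, so the call depends on the tool. In Old_CP2 over Old it was -0.022 ± 0.042 (SE, edgeR adjusted p = 0.944).

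Atp5d, the delta subunit, had the smallest p of the ATP synthase in Old_CP2 against Old. It measured 138.3, 135.8, 135.2 and 142.2 CPM in Old_CP2, 137.6, 144.1, 154.3 and 147.8 CPM in Old and 162.2, 139.5, 147.3 and 151.0 CPM in Young. Old library 7 was the one Old library inside the Old_CP2 range, and the log2 fold change was -0.082 ± 0.051 (SE, edgeR adjusted p = 0.830). The gene span of Atp5d overlaps that of Dos. Without strand, some of its reads may belong to Dos if their exons overlap, which was not examined. Atp5b, the beta subunit that carries the catalytic sites, was the most abundant member by CPM, with 1019 ± 10.4 in Old_CP2, 1067 ± 27.4 in Old and 1017 ± 27.6 in Young (SD, n = 4 each).

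The other head and stalk subunits differed little between groups. Atp5c1, the gamma subunit that forms the rotating shaft, averaged 187 ± 13.4 CPM in Old_CP2, 195 ± 16.6 CPM in Old and 184 ± 13.6 CPM in Young (SD, n = 4 each). Atp5e, the epsilon subunit, averaged 70.9 ± 6.22 CPM in Old_CP2, 71.7 ± 4.58 CPM in Old and 77.6 ± 6.29 CPM in Young (SD, n = 4 each). The peripheral stalk keeps the head from turning with the shaft. Atp5f1, its b subunit, averaged 206 ± 16.1 CPM in Old_CP2, 219 ± 21.9 CPM in Old and 222 ± 17.9 CPM in Young (SD, n = 4 each). Atp5h, its d subunit, averaged 122 ± 17.7 CPM in Old_CP2, 127 ± 13.8 CPM in Old and 126 ± 11.4 CPM in Young (SD, n = 4 each). Atp5j, its coupling factor F6, averaged 127 ± 10.3 CPM in Old_CP2, 131 ± 11.8 CPM in Old and 132 ± 10.6 CPM in Young (SD, n = 4 each). Its top is OSCP, which binds the head. Atp5o, which encodes OSCP, averaged 154 ± 17.8 CPM in Old_CP2, 162 ± 12.98 CPM in Old and 165 ± 13.9 CPM in Young (SD, n = 4 each).

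The membrane subunits f, e and g sit beside the c ring, and e and g are known for pairing the enzyme into dimers. Atp5j2, subunit f, averaged 92.7 ± 13.7 CPM in Old_CP2, 101 ± 10.7 CPM in Old and 108 ± 13.3 CPM in Young (SD, n = 4 each). Atp5k, subunit e, averaged 60.5 ± 6.27 CPM in Old_CP2, 62.99 ± 5.14 CPM in Old and 66.3 ± 5.83 CPM in Young (SD, n = 4 each). Atp5l, subunit g, averaged 23.2 ± 2.63 CPM in Old_CP2, 25.9 ± 4.06 CPM in Old and 26.3 ± 1.54 CPM in Young (SD, n = 4 each). Over these 9 head, stalk and membrane genes the log2 fold changes of Old_CP2 over Old ran from -0.16 to -0.017, all with overlapping groups.

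The c subunit is encoded by Atp5g1, Atp5g2 and Atp5g3, which differ in the targeting sequence that is cut off and give the same mature protein. Atp5g3 measured 191.2, 195.3, 195.1 and 203.0 CPM in Old_CP2, 198.5, 199.6, 194.3 and 199.5 CPM in Old and 191.4, 185.4, 187.5 and 203.1 CPM in Young. Atp5g1 measured 73.0, 74.1, 71.0 and 87.1 CPM in Old_CP2, 75.8, 76.6, 79.3 and 81.9 CPM in Old and 88.6, 71.9, 83.0 and 83.3 CPM in Young. Atp5g2 measured 19.95, 20.2, 18.9 and 23.1 CPM in Old_CP2, 21.7, 21.1, 21.8 and 19.5 CPM in Old and 24.9, 19.9, 20.3 and 23.5 CPM in Young. The groups of all 3 genes overlapped in every comparison, and the log2 fold changes of Old_CP2 over Old were -0.013, -0.040 and -0.035 for Atp5g3, Atp5g1 and Atp5g2.

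Per kb of deposited length, Atp5g3 gave 76.4 ± 1.24% of the c subunit transcripts in Old_CP2, 76.1 ± 0.518% in Old and 74.7 ± 1.45% in Young (SD, n = 4 each). Atp5g1 gave 13.2% in Old_CP2, 13.4% in Old and 14.1% in Young. Atp5g2 gave 10.4% in Old_CP2, 10.5% in Old and 11.2% in Young. By principal transcript Atp5g3 stood at 86.0% in Old_CP2, 85.8% in Old and 84.8% in Young. That transcript has 4715 bases for Atp5g1, 731 for Atp5g2 and 723 for Atp5g3, so these shares depend on the isoform taken as principal. Atp5g2, at 8.88% in Old_CP2, 9.01% in Old and 9.67% in Young, then exceeded Atp5g1, at 5.12% in Old_CP2, 5.21% in Old and 5.53% in Young, so the order of the minor genes rests on the length used. Near-identical copies held reads equal to 19.0% of those of Atp5g1 and 11.01% of those of Atp5g2.

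The 3 promoter windows are printed because one mature protein is made from promoters that differ in these letters (RefSeq, GRCm38.p6, minus strand for each; capitals mark NRF1 motif matches). They lie at chr2:73911277-73911576 for Atp5g3, chr11:96075582-96075881 for Atp5g1 and chr15:102670998-102671297 for Atp5g2.
Atp5g3: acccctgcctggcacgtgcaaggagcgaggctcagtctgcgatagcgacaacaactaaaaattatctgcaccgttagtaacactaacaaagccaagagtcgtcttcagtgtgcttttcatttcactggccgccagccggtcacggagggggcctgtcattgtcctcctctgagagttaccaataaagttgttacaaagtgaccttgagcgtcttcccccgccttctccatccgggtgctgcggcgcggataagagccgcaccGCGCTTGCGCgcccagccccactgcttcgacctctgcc
Atp5g1: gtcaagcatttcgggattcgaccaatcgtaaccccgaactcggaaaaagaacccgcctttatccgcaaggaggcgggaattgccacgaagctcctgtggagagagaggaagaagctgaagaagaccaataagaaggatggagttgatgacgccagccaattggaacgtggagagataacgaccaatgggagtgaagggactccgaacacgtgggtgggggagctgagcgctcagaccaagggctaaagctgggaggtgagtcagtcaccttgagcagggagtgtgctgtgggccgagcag
Atp5g2: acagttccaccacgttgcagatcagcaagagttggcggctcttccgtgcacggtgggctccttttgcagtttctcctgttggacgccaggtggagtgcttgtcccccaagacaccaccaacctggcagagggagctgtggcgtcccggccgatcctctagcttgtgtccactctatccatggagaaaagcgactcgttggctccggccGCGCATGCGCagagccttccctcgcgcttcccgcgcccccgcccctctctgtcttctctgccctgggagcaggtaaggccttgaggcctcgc
Atp5g3 held 1 match beginning at position 12 after the start and Atp5g2 held 1 beginning at -42, while Atp5g1 held none of the 4 motifs in this window. Their GC content was 57.0% for Atp5g3, 55.3% for Atp5g1 and 63.0% for Atp5g2.

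Most members varied together from library to library within groups. With group means removed, the median correlation over the 741 pairs of members was 0.71, and it was 0.84 over the 231 pairs of genes with a principal transcript under 1000 bases. Within complexes the median was 0.31 for complex II, 0.67 for complex III, 0.78 for complex IV and 0.65 for the ATP synthase. All 45 pairs of complex IV genes had values of 0.54 to 0.99. Members with longer transcripts followed the others less, and the correlation over the 39 genes of log2 principal length with the median r to other members was -0.53. Members with longer transcripts also had a smaller SD within groups, with a correlation of -0.53. These values describe 12 libraries whose members share depth and RNA composition.

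Short genes other than the members had library deviations of like sign and size. For the 22 members with a principal transcript under 1000 bases, the median deviation from the group mean was -0.019, -0.14, -0.057 and 0.21 on the log2 scale in Old_CP2 libraries 11, 12, 13 and 15. It was 0.14, 0.037, -0.049 and -0.13 in Old libraries 7, 8, 9 and 10, and 0.024, -0.14, -0.051 and 0.15 in Young libraries 1, 3, 4 and 5. In each group 1 library stood high and another low. The 187 other genes of that length with a mean log2 CPM above 5 had medians of -0.011, -0.11, -0.055 and 0.17 in Old_CP2, 0.094, 0.037, -0.021 and -0.12 in Old and 0.018, -0.11, -0.038 and 0.12 in Young. Without the genes of the related lists (complex I subunits, assembly factors and other subunits), 163 of the 187 were left, with 0.17 in Old_CP2 library 15, 0.086 in Old library 7 and -0.11 in Old library 10. Genes of 4000 bases or more leaned the other way in the libraries that stood out, with -0.075 in Old_CP2 library 15, -0.057 in Old library 7 and 0.046 in Old library 10.

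**Figure D5:**
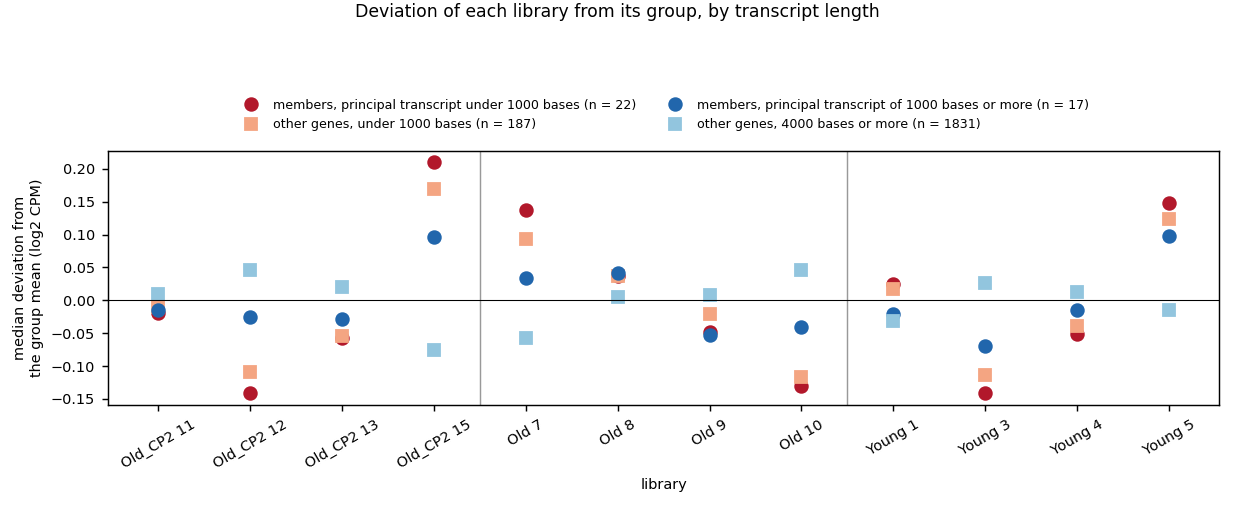
Median deviation from the group mean (log2 CPM) in each library for members with short and longer principal transcripts (circles) and for other genes of short and long transcripts (squares). Short members and other short genes move together, reaching 0.21 and 0.17 in Old_CP2 library 15, where long genes lie at -0.075.

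The differences between groups can be set beside the same genes. In Old_CP2 over Old the median log2 fold change was -0.081 for the 22 short members and -0.040 for the 187 other short genes, with 95.5 and 70.6% of the values below 0. For the 17 longer members it was -0.062, with 100% of the values below 0. It was 0.0026 for the 697 other genes from 1000 to under 2000 bases, 0.015 for the 1669 from 2000 to under 4000 bases and 0.031 for those of 4000 bases or more, with 48.6, 41.5 and 32.3% below 0. In Old over Young it was -0.041 for short members and -0.039 for other short genes. In Old_CP2 over Young it was -0.12 for short members and -0.084 for other short genes. With a library offset fitted by transcript length over genes that are not members, the members' median in Old_CP2 over Old was -0.043 and 34 of 39 values were below 0. What sets the difference by length between libraries was not tested.

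Assembly factors put the subunits of these complexes together. Of the 34 measured assembly factors of complexes II to V, 0 were called by edgeR in each of the 3 comparisons, where 0.0443, 6.7 and 7.57% of all tested genes were called in Old_CP2 over Old, Old over Young and Old_CP2 over Young. In the same order, 0, 2 and 2 of them had an unadjusted p under 0.05, where 6.31, 21.4 and 23.2% of all tested genes did, and their median log2 fold changes were -0.017, -0.013 and -0.039. Taco1, a translational activator of a mitochondrial complex IV subunit, had the smallest p for CP2, with 11.2 CPM in Old_CP2 and 12.3 CPM in Old and a log2 fold change of -0.13 ± 0.070 (SE, edgeR adjusted p = 0.820). Lrpprc, which stabilises mitochondrial messenger RNA, came next with 80.9 CPM in Old_CP2 and 75.6 CPM in Old, a log2 fold change of 0.098 ± 0.054 (SE, edgeR adjusted p = 0.822). Ttc19, a complex III assembly factor, averaged 87.6 CPM in Old and 97.96 CPM in Young, with a log2 fold change of -0.16 ± 0.063 (SE, edgeR adjusted p = 0.154). Coa3, a complex IV assembly factor, averaged 38.95 CPM in Old and 42.8 CPM in Young (log2 fold change -0.14 ± 0.055 SE, edgeR adjusted p = 0.162).

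In Old_CP2 over Young, the complex IV assembly factors Coa6 and Cox14 had log2 fold changes of -0.26 ± 0.11 and -0.21 ± 0.093 (SE), with edgeR adjusted p of 0.162 and 0.201. Of 10 tested subunits and regulators outside the 39, Cox6a2 was the only one called. Cox6b2, an isoform known from testis, had the smallest p for CP2 among them, with 1.60 CPM in Old_CP2 and 1.98 CPM in Old and a log2 fold change of -0.31 ± 0.19 (SE, edgeR adjusted p = 0.826). Usmg5, a membrane subunit of the ATP synthase, averaged 74.6 CPM in Old_CP2 and 83.8 CPM in Old (log2 fold change -0.17 ± 0.11 SE, edgeR adjusted p = 0.831). Atp5s, known as coupling factor B, averaged 16.1 CPM in Old_CP2, 14.9 CPM in Old and 13.8 CPM in Young, with a log2 fold change of 0.21 ± 0.084 (SE, edgeR adjusted p = 0.148) in Old_CP2 over Young and 0.10 ± 0.085 (SE, edgeR adjusted p = 0.548) in Old over Young.

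The 36 nuclear subunits of complex I, the target of CP2, had 0 calls by edgeR in each comparison. Of these, 1 gene had an unadjusted p under 0.05 in Old_CP2 over Old, 2 in Old over Young and 7 in Old_CP2 over Young, where 6.31, 21.4 and 23.2% of all tested genes reached it. Their median log2 fold changes were -0.046, -0.060 and -0.12 in those comparisons, beside -0.067, -0.022 and -0.099 for the 39 genes of complexes II to V.

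A pair of gene properties limits single values. Near-identical copies, mostly annotated as pseudogenes, exist for 14 of the 39. The reads of such copies came to 10% or more of the gene's own for 5: Atp5l with 50.3%, Cycs with 26.4%, Atp5g1 with 19.0%, Cox5b with 14.4% and Atp5g2 with 11.01%. The copy of Cox5b is not annotated as a pseudogene. The span of another listed gene, introns included, overlaps that of 15 of the 39 on either strand. The library kit does not mark strand, so reads could not be told apart where exons overlap too. Overlap of exons was not examined. Among the 15 are Cox4i1 with Emc8, Cox6c with Vps13b, Atp5j with Gabpa, Atp5f1 with Wdr77, Cox5a with Gm26631 and Atp5o with 7 genes that include Itsn1.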

How the data were processed

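RNA was sequenced from 12 mouse brain libraries, 4 per group. Libraries were made with a TruSeq kit that does not mark strand, per the labels' protocols, and read as 101-base pairs, per the series' design text. The submitters' processing notes name bcl2fastq, TopHat, Subread featureCounts and the mm10 build; their versions are not given in the sources used here. In the deposited table the authors give a gene count per library, as whole numbers without scaling, per the file headers. It also gives RPKM values made by the authors, per the file headers, which were used for 1 check: the summed counts are 79.9 to 85.4% of the library total behind them.

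A quasi-likelihood model (edgeR 4.0.16, R 4.3.3) was fitted to the counts of all 12 libraries with group as the only term, after filterByExpr and TMM scaling. Two-sided quasi-likelihood tests were adjusted by Benjamini-Hochberg over the 22553 genes tested, and a call is an adjusted p under 0.05. Group values are normalised CPM with SD over 4 libraries, SE and 95% intervals come from the fit, and 4 libraries per group limit the precision. The procedure was also run on simulated counts, whose outcome is not given here and supports no value above. Alternatives were DESeq2 1.42.0 and its size factors, limma 3.58.1 voom, plain library sizes, no filter, 8 libraries only, a choroid plexus score as covariate and leaving out each library. Library offsets by transcript length and levels per kb of principal transcript (GENCODE vM21) were added after seeing the data. Copies were found with BLAST+ 2.17.0. Promoters came from RefSeq, and motifs were searched with Python 3.11.15.

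The members, gene lists and tests were chosen with earlier results of these data known. Members given library by library were those called, those with the smallest p in each complex for Old_CP2 against Old and Old against Young, those highest and lowest per kb of deposited length, and the 3 c subunit genes; of each related list, the 2 genes with the smallest p per comparison were named.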

Additional observations from a re-analysis of the deposited data

Results flagged for a closer look

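In 7 of 129 groups of 4 libraries examined (each member, each complex sum and each group), 1 library lay so far from its nearest neighbour, relative to the whole range of the group, that the gap exceeded Dixon's 95% critical value for 4 values. Chance alone gives about 1 in 20 such groups.

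Library 15 of Old_CP2 accounts for 5 of the 7. It held 301.2 CPM of Cox8a, against 257.8 to 261.8 CPM in the other Old_CP2 libraries, 229.3 CPM of Cox6a1, against 199.8 to 203.0 CPM, and 120.2 CPM of Cox5a, against 103.4 to 105.7 CPM. It also held 67.9 CPM of Sdhc, against 63.0 to 63.7 CPM, and a summed 3513 CPM of the ATP synthase genes, against 3252 to 3292 CPM. The same library was high for short genes other than the members, with a median log2 deviation of 0.17 over 187 such genes and also over the 163 of them that are in no list of related respiratory genes. Cox8a, Cox6a1 and Cox5a are short in this sense, whereas Sdhc has a principal transcript of 3171 bases. The ATP synthase sum includes longer ones such as Atp5a1 at 2471 bases. Other genes from 2000 to under 4000 bases had a median of -0.022 in that library.

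Uqcrc1, a core protein of complex III, was low in Old_CP2 library 13 at 197.3 CPM, with 204.9 to 205.8 CPM in the other libraries of that group. Cycs was high in Young library 5 at 55.4 CPM, with 46.4 to 47.3 CPM in the others.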

How the results depend on the processing

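No paired analysis was possible because no replicate number of the labels occurs in more than 1 group. No member was called in Old_CP2 over Old under any alternative run. With DESeq2, 2 members were called in Old over Young and 3 in Old_CP2 over Young (Sdha and Atp5a1 in both, Uqcr11 in the second), against 1 each by edgeR. With the choroid plexus score as covariate, 0 members were called in Old_CP2 over Young. Leaving out single libraries gave 1 to 2 called members in Old_CP2 over Young, the 2 without Old_CP2 library 15. Calls over all tested genes in Old_CP2 over Old numbered 10, against 17 without the filter on low counts, 108 with DESeq2 and 6 to 38 with single libraries left out (6 without Old library 9, 38 without Old_CP2 library 15). In Old over Young they numbered 1511, against 2474 with DESeq2, 303 with the covariate and 855 to 1258 with single libraries left out. In Old_CP2 over Young they numbered 1707, against 2652, 322 and 827 to 1590. The lower counts with libraries left out come with fewer samples; the cause of the other shifts was not tested. The members' median log2 fold change ran from -0.12 (without Old_CP2 library 15) to -0.031 (without Old library 7) in Old_CP2 over Old. It ran from -0.074 to 0.030 in Old over Young, on both sides of 0, and from -0.17 to -0.020 in Old_CP2 over Young. Over the named genes, 1282 recomputed values stayed on their side of the threshold, 6 passed it newly, 8 no longer did (all of Cox6a2, except Sdha in Old_CP2 over Young with the covariate) and 0 changed sign past it. Of the 1282, 56 uncalled values took the other sign (at most 0.078 in size on the log2 scale, Cox4i1 with offsets by length). The 6 were Atp5a1 in both comparisons with Young and Uqcr11 with DESeq2, Uqcr11 and Cox14 without Old_CP2 library 15 (Cox14 adjusted p = 0.0393, edgeR) and Atp5s without Young library 5 (adjusted p = 0.0252, edgeR), all but 1 in Old_CP2 over Young. The SE of a member's log2 difference between groups was 0.037 to 0.13 with 4 libraries each.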
